A study of Mus musculus with 2 samples.

Results

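A group of 311 barcodes that carried transcripts of Fabp7 and Hes5 was examined among the 14348 barcodes passing the quality limits in a single-cell library of mouse heart and liver, 2.17% of the total. A barcode passed with 2000 to 75000 UMIs (unique molecular identifiers, each standing for 1 captured transcript), more than 500 genes, and less than 5% of its UMIs from mitochondrial and from Hba and Hbb haemoglobin genes. It was placed in the group with at least 3 Fabp7 UMIs, at least 1 Hes5 UMI, fewer than 3 Prph UMIs and no Cdh5 UMI, whatever its hashtag. Fabp7, Hes5, Prph and Cdh5 therefore chose the group, and their levels are given only as a description. The 14037 other passing barcodes served as the comparison. A barcode was taken as 1 cell, and as there was 1 library, no barcode was shared between libraries.

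The hearts and livers of pups of 3 kinds, controls and those with the iSuRe-Cre or the iSuRe-HadCre allele, were marked with antibody hashtags and pooled, so that 6 hashtags stand for 6 groups with 1 sample each. All pups were C57BL/6, received 1 dose of 40 mg/kg 4-hydroxytamoxifen at postnatal day 3, and were dissected 3 days later, with an age of P6 to P7 in the labels. The iSuRe groups carried Cdh5-CreERT2, a tamoxifen-dependent Cre driven in endothelial cells (ECs), together with iSuRe-Cre, which couples a Tomato reporter to lasting Cre expression, or iSuRe-HadCre (iHadSuRe-Cre in the genotype label), in which Cre expression is transient. Floxed Notch1 alleles are shown for the iSuRe groups in a drawing of the study but not in the labels, and the sources used here did not give the genotype of the controls. Cells were sorted by CD31 and by the Tomato signal, and the labelled cell type was endothelial. How many pups each group held was not found either, so no value below has an error between animals. There was no test, and the 95% intervals (exact Poisson for levels, exact binomial for shares, exact conditional for ratios) cover counting error only.

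Fabp7 encodes a fatty acid binding protein that is typical of radial glia, the dividing progenitors that line the ventricles of the developing brain and spinal cord. Hes5 encodes a transcriptional repressor that is switched on by Notch signalling in these progenitors and delays their differentiation into neurons. Fabp7 is also made by the glia of peripheral nerves, which arise from the neural crest and depend on the transcription factor Sox10. Progenitors keep a record of their place along the body axis, with Emx and Otx genes in the forebrain and Hox genes in the hindbrain and spinal cord.

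The upstream regions of the 2 genes that define the group are shown because Hes5 is a direct target of the Notch effector RBPJ. Both runs lie on the plus strand of GRCm38.p6 and were taken from RefSeq, from chr4:154960693-154960892 for Hes5 and chr10:57784681-57784880 for Fabp7. Capitals mark GTGGGAA or its reverse complement TTCCCAC, the letters that RBPJ is known to recognise.
Hes5: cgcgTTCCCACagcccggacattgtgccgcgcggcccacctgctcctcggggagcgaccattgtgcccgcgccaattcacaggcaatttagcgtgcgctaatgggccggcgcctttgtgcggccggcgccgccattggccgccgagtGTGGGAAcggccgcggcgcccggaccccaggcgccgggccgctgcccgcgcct
Fabp7: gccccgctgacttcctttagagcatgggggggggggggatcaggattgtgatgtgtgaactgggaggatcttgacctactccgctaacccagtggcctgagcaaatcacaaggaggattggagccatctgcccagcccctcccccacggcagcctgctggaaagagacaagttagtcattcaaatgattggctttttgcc
The genes, annotated on GRCm38, span chr4:154960923-154962371 for Hes5 and chr10:57784881-57788450 for Fabp7, and both runs end before the first exon. Hes5 held 2 such matches, which began at positions -226 and -83 from the start site and lay in opposite orientations. Fabp7 held 0 in a window of 250 bases before and 50 after its start. Over 32851 RefSeq promoters of that length, searched on both strands, 6.38% held at least 1 match and 84, or 0.256%, held 2 or more. Of the shorter run TGGGAA, Fabp7 held 1 match and Hes5 held 2, and 25.6% of those promoters held at least 1. Whether RBPJ acts on Fabp7 was not tested.

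Members of the group had 3 to 579 Fabp7 UMIs each, with a median of 19, and 1 to 66 Hes5 UMIs, with a median of 3. Summed over members, Fabp7 stood at 3649.9 CPM (UMIs of a gene per 1000000 UMIs) against 125 in the other passing barcodes, and Hes5 at 454 against 10.9 CPM. In free RNA, read from 24194 barcodes of 10 to 100 UMIs, Fabp7 was at 220.0 and Hes5 at 42.3 CPM. At the limits of the rule, 26 members had exactly 3 Fabp7 UMIs and 39 further barcodes met every other criterion with exactly 2, and 102 members had exactly 1 Hes5 UMI. Another 342 barcodes had enough Fabp7 but no Hes5 UMI, and 249 had Hes5 with fewer than 3 Fabp7 UMIs. A single Cdh5 UMI kept 74 barcodes out, 2 or more kept out 81, and 3 or more Prph UMIs kept out 2. Members were deep, with 2094 to 58839 UMIs and a median of 14272 against 5624 in the other barcodes, and a median of 4279 genes.

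The group carried the marker genes of central nervous system (CNS) progenitors. The label given to the group, neural progenitors or glia, was checked with a list of 12 such genes, which summed to 2207 CPM in members, 374 in the other barcodes and 481 in free RNA, a ratio of members to others of 5.90 (95% interval 5.78 to 6.03). The list was also high in barcodes just outside the rule, at 2121 CPM in the 74 with 1 Cdh5 UMI and 1162 in the 81 with 2 or more. It was at 996 CPM in the 342 with Fabp7 but no Hes5 UMI. In the 249 with Hes5 and fewer than 3 Fabp7 UMIs it was at 699 CPM. Per member the list gave 0 to 193 UMIs with a median of 29. At least 3 of the 12 genes were detected in 272 of 311 members (87.5%) and in 18.7% of the other barcodes, and at least 6 were detected in 67.8% of members and 2.12% of the others. The label was thinner at the low end, where 32 members had fewer than 3 UMIs of the list and 6 had none.

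Genes were called by size alone, at least 4-fold different after adding 10 CPM to both levels, among the 13879 genes with at least 200 UMIs. By that rule 8 of the 12 CNS progenitor genes were higher in members and 0 lower, beside 0.569% of all genes higher (79) and 1.92% lower (267). The counts over all genes depended on the setting, with 210 higher and 1039 lower when 1 CPM was added, and 56 and 87 against the barcodes without Cdh5. The median log2 difference was 2.18 over the list and -0.03 over all genes. Because the group was chosen by 2 progenitor genes in the same cells, these counts describe it and support nothing further.

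Sox2, the transcription factor that maintains neural progenitors, was at 314 CPM in members and 19.2 in the others, with 0 to 26 UMIs and a median of 4 per member. A Sox2 UMI was found in 80.1% of members (95% interval 75.2 to 84.4), 7.41% of the others and 2.22% of 90 barcodes with C1qa and C1qb, macrophage genes, whose median depth of 16868 UMIs was above that of members. After each barcode was thinned to 2000 UMIs, the Sox2 share was 40.5% in members and 3.51% in the others. The related factors Sox1 and Sox3 were at 44.2 and 40.4 CPM, against 2.23 and 2.30. Pax6, which patterns the dorsal forebrain, eye and spinal cord, was at 113 against 7.50 CPM and was detected in 46.3% of members. Nes, the intermediate filament nestin, was at 236 against 92.0 CPM, a ratio of 2.56, and at 155 CPM in the 5678 barcodes with at least 2 Cdh5 UMIs. Its ratio was below those of the Sox genes.

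The genes with the largest differences, apart from those of the rule, were known from radial glia or the brain. The 15 highest by the log2 difference were Csmd1, Adgrv1, Mt3, Rfx4, Ptprz1, Sox2, Ttyh1, Adgrb3, Slc35f1, Ckb, Fut9, Rgs20, Id4, Lhx2 and Pax6. Rfx4, a regulator of cilia and of neural tube patterning, was at 212 CPM in members and 9.15 in the others, a ratio of 23.1 (95% interval 21.3 to 25.2). Ptprz1, a receptor phosphatase of radial glia, was at 501 against 35.0 CPM (ratio 14.3, 13.6 to 15.0). Ttyh1, a membrane protein of neural stem cells, was at 155 against 8.67 CPM, and Mt3, the brain metallothionein, at 283 against 13.8. Ckb, the brain form of creatine kinase, was detected in 98.1% of members and reached 1569 against 195 CPM. Csmd1, a complement regulator expressed in the nervous system, had the largest log2 difference with 10 CPM added, at 620.1 against 32.4 CPM. Its ratio of 19.1 was below that of Rfx4. Only 43.7% of members had a Csmd1 UMI, with up to 212 UMIs in one of them. The median member had no Csmd1 UMI, so its sum rested on fewer cells than those of Ckb and Sox2, and it stood at 73.7 CPM in free RNA.

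Markers of the sorted cell type and of the dissected organs were low in the group. The 10 lowest genes were Fabp4, Afp, Stfa1, Ttr, Cd36, Cavin2, Bst2, Adgrf5, Cd93 and Rbp4, several of them EC or hepatocyte genes. All 10 genes of the endothelial list were at least 4-fold lower, and the list summed to 131 CPM in members, 1996 in the others and 1780.5 in free RNA. Pecam1, which encodes the CD31 used in the sort, was at 16.5 CPM in members against 267 in the others and 586 in the barcodes with at least 2 Cdh5 UMIs. The absence of Cdh5 was part of the rule, so these low levels restate it in part. Barcodes that met every other criterion had the endothelial list at 447 CPM with 1 Cdh5 UMI (74 barcodes) and at 1818 CPM with 2 or more (81 barcodes). Against barcodes without Cdh5 the summed list was at 0.414 of their level, in place of 0.0658 of all other barcodes, and the ratio was 0.133 between means of the barcodes' own CPM. The summed endothelial level was also below that of free RNA, as were those of the hepatocyte list (235 against 5826 CPM), the cardiomyocyte list (28.5 against 299) and the erythroid list (2174 against 57182). All 8 hepatocyte genes and 1 of 8 cardiomyocyte genes were at least 4-fold lower than in the other barcodes. The heart-muscle myosins Myh6 and Myh7 had 3 and 1 UMIs over all members.

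Further non-neural lists were low as well, and their largest single cells are given because a barcode can hold more than 1 cell. The mesenchymal list was at 361 against 1476 CPM with up to 198 UMIs in a member, the epithelial list at 44.0 against 303 with up to 55, and the macrophage list at 54.3 against 366 with up to 68. The median member had 1 UMI of the mesenchymal list and 0 of the epithelial and macrophage lists. The melanocyte list was at 27.0 against 78.3 CPM, with Tyr and Tyrp1 at 0 UMIs in members.

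**Figure D1:**
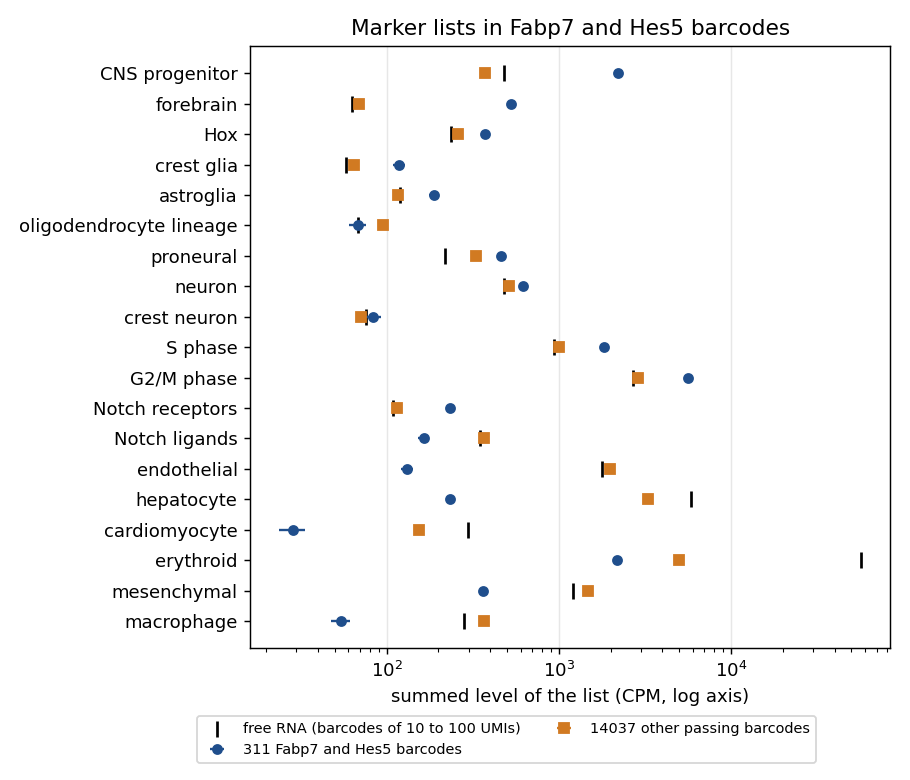
Summed level of marker lists in CPM (log axis) in the 311 Fabp7 and Hes5 barcodes (circles), the 14037 other passing barcodes (squares) and free RNA (bars), with exact 95% Poisson intervals that are often narrower than the symbol. The CNS progenitor and forebrain lists lie to the right of the other barcodes and the endothelial, hepatocyte and cardiomyocyte lists to the left of both the other barcodes and free RNA.

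Genes of glia were mixed. The 8 astroglia genes summed to 188 CPM in members and 117 in the others, a ratio of 1.61 (95% interval 1.50 to 1.72). Gfap, the filament protein that defines mature astrocytes, had 2 UMIs over all members, and the water channel gene Aqp4 had 9, a ratio of 4.89 (2.12 to 10.0). Of the 5 genes of the list with enough UMIs to be called, Aldoc, a brain aldolase, was higher at 81.1 against 5.90 CPM and none was lower. Slc1a2, an astrocyte glutamate transporter, was at 34.4 against 6.84 CPM in 63 members, Aldh1l1, an enzyme of folate metabolism in astrocytes, at 14.5 against 2.34, and the potassium channel gene Kcnj10 at 5.66 against 0.254. Glul, glutamine synthetase, was at 49.9 against 94.7 CPM. Slc1a3, the glutamate transporter that radial glia share with astrocytes, was at 205 against 47.8 CPM. Olig1 and Olig2, which specify the oligodendrocyte lineage, were detected in 6 and 28 members, at 9.22 and 13.6 CPM against 0.364 and 0.603 (ratios 25.4, 16.5 to 38.8, and 22.6, 16.1 to 31.6). The Olig1 level rested on few barcodes, as 41 of its 44 UMIs lay in 3 members with Sox10, 24 of them in 1 barcode. Members without Sox10 had Olig1 at 0.688 CPM and Olig2 at 11.0. Both had too few UMIs to be called, and of the 4 other genes of that list none was called in either direction. None of the 12 crest glia genes was called either, and that list summed to 119 CPM in members and 64.5 in the others. Per member it gave 0 to 60 UMIs with a median of 0, and 213 members had none. The CNS progenitor list exceeded the crest glia list in 292 members (93.9%), the crest glia list exceeded the CNS list in 11 (3.54%, 95% interval 1.78 to 6.24), and 8 were tied, 4 of them at 0. In 39 members the lists were within 2 UMIs of each other. In members with Sox10 the CNS list was at 1592 CPM and the crest glia list at 1009, but Ptprz1 alone gave 766 CPM of the former. Ptprz1 and Ttyh1 were higher there than in members without Sox10 (766 against 476 and 193 against 151 CPM). The other genes of the CNS list were lower there. Sox1 had 0 UMIs, Pax6 was at 21.7 against 122 CPM, Zic1 at 16.9 against 128 and Sox3 at 9.64 against 43.4. The counts of members by list compare raw UMIs of lists of unlike level and do not divide the members by cell type.

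Sox10, a gene of the crest glia list, was detected in 20 members, 14 of them with at least 2 UMIs, and 15 of the 20 also had Sox2. The oligodendrocyte lineage list was at 323 CPM in the 20 and 43.6 in members without Sox10. Sox10 alone was therefore not read as marking a member as crest glia. These 20 members carried most of the crest glia signal. Without them the list fell from a ratio of 1.84 to 0.523 of the other barcodes (95% interval 0.441 to 0.615). As Sox10 is in the list, that fall was partly built in. With Sox10 barcodes left out of both sides and Sox10 out of the list, the ratio was 0.779 (0.657 to 0.918). Both settings were chosen after the data were seen. Fabp7 was at 8056 CPM in the 20 and 3230.3 in the 291 members without Sox10.

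Genes of neurogenesis were present in part of the group. Neurog2, a proneural factor that drives progenitors towards neurons, was detected in 72 members (23.2%) at 67.7 against 9.74 CPM. Hes6, which is switched on as cells leave the progenitor state, was at 114 against 38.9 CPM. Genes of neurons were mixed. Of the 10 neuron genes, 0 were called higher or lower, and the list summed to 618 against 513 CPM, a ratio of 1.20 that became 0.960 when only barcodes without Cdh5 were the comparison. Elavl3, an RNA-binding protein of young neurons, was at 59.7 against 19 CPM and Map2, a microtubule protein, at 240.1 against 64.8. Stmn2, a tubulin regulator of growing axons, was at 30.0 against 148 CPM and the neurofilament gene Nefl at 6.49 against 23.4. In the 268 barcodes chosen for at least 5 Stmn2 UMIs and no Cdh5, Sox2 was at 31.4 CPM. The 10 genes of sympathetic and sensory neurons summed to 84.0 against 71.1 CPM, a ratio of 1.18 (1.07 to 1.31), with Th, Dbh and Ret at 0 UMIs. Most of that sum in members was Ntrk3, a neurotrophin receptor also made in the CNS, at 73.9 against 15.3 CPM in 109 members.

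Members differed from each other in genes of position along the body axis. A list of 10 forebrain genes gave 0 to 107 UMIs per member (median 3) and summed to 531 CPM against 69.4 in the other barcodes. The 39 Hox genes gave 0 to 70 UMIs per member (median 0) and summed to 371 against 261 CPM, with 237 in free RNA. A Hox UMI was found in 41.5% of members and 54.2% of the others, or 28.5% and 31.9% after thinning. Hox genes were at 468 CPM in the Stmn2 barcodes and 418 in the 1325 barcodes with Col1a2 and Col3a1, so they were not particular to members. With a limit of 2 UMIs, chosen after the values were seen, 141 members (45.3%) had forebrain genes and no Hox UMI, and 69 (22.2%) had Hox genes and no forebrain UMI. Both lists reached 2 UMIs in 20 members (6.43%), neither list had a UMI in 29, and the other 52 had a list at exactly 1 UMI. With a limit of 5 UMIs the counts were 105, 51 and 6. Most members with a clear signal therefore carried genes of 1 region and not of the other. The 20 with both had a median of 23639.5 UMIs, above 17130 in the forebrain and 13735 in the Hox members, and 1 of them was a hashtag doublet. Whether they hold 2 cells was not tested.

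**Figure D2:**
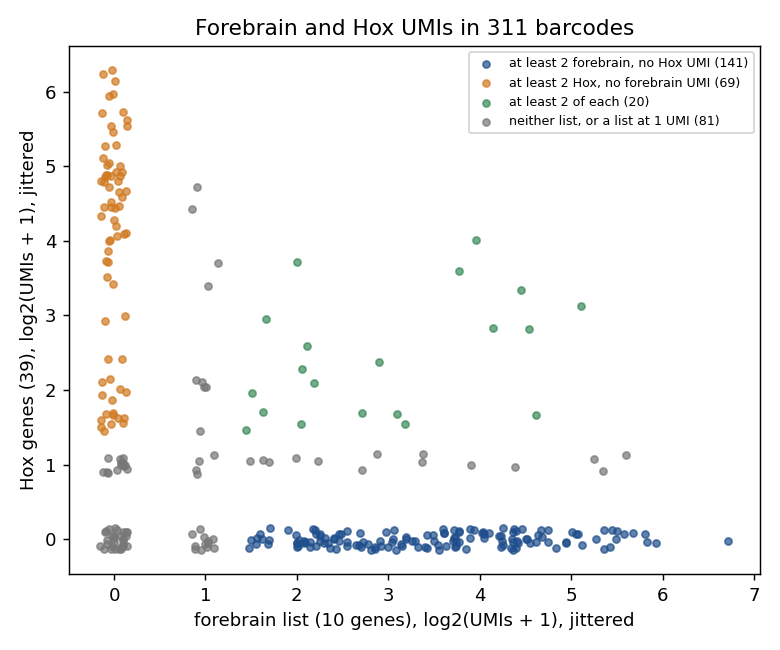
UMIs of 10 forebrain genes (x axis) and 39 Hox genes (y axis) in each of the 311 Fabp7 and Hes5 barcodes, as log2 of UMIs plus 1 with a small random shift. Points lie along the 2 axes, 141 on the forebrain axis and 69 on the Hox axis, with 20 that have at least 2 UMIs of each.

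Within the forebrain list, Lhx2, a regulator of cortex and eye, was detected in 41.8% of members at 242 CPM. Otx2, a factor of the forebrain, midbrain and eye, was detected in 25.1% of members, Emx2 in 21.9% and Emx1 in 19.6%. The ventral telencephalon factors Dlx1 and Dlx2 were in 12 and 20 members. Retinal progenitor genes that are not also forebrain genes were near 0, with 3 UMIs of Rax over the group. The Hox members held genes from the whole length of the Hox clusters. Paralogs 1 to 5, which begin in the hindbrain, were detected in 61 of the 69 Hox members, paralogs 6 to 9, of the trunk, in 60, and paralogs 10 to 13, of the lumbar and sacral levels, in 40. Hoxb8, of the trunk paralogs, was at 127 CPM in the Hox members, which were chosen for Hox UMIs. Its absence from the forebrain members was set by their definition, which allowed no Hox UMI. Midbrain and anterior hindbrain genes were rare, with at least 2 UMIs of that list of 8 in 33 members (10.6%), only 4 of which had neither a forebrain nor a Hox UMI.

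Fabp7 is given by region as a description only, since at least 3 UMIs of it were required of every member and the regional groups were drawn from the same cells after their values were seen. In the forebrain members it ranged from 78.4 to 25178 CPM per barcode with a median of 1512. In the Hox members it ranged from 172 to 31431 with a median of 4035. The ranges overlapped almost fully, and 53 of the 69 Hox members lay above the forebrain median. Hes5, which the rule also used, summed to 503 CPM in Hox and 484 in forebrain members.

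**Figure D3:**
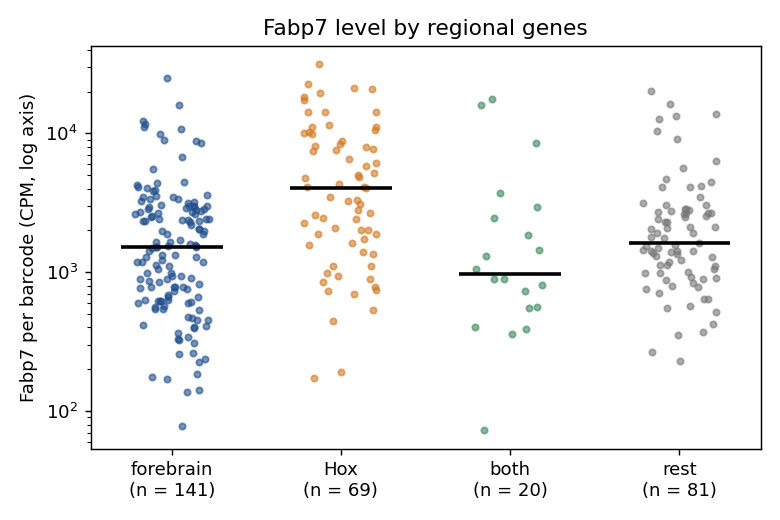
Fabp7 level of each barcode in CPM (log axis) for the forebrain, Hox and both-list members and the rest, with the median as a black line. The Hox members have a median of 4035 CPM against 1512 in the forebrain members, and the ranges overlap.

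Other genes, which the regional lists did not hold, differed between these members too. Csmd1 was at 1727 CPM in Hox and 255 in forebrain members, a ratio of 6.78 (95% interval 6.20 to 7.42), and was detected in 44 of 69 and 58 of 141. Pax3, a factor of the dorsal neural tube and the neural crest, was at 386 against 77.2 CPM (ratio 5.00) and was found in 50 of the 69 Hox members. Rfx4 was higher in Hox members as well, at 374 against 169.6 CPM (ratio 2.21, 1.92 to 2.54), as were Slc1a3 (338 against 145) and Zic1 (203 against 93.9), a dorsal neural factor. Rarb, a retinoic acid receptor, was at 106 against 13.6 CPM, a ratio of 7.80. Tfap2b, a factor of neural crest and of dorsal interneurons, had no UMI in forebrain members and 74.8 CPM in Hox members, at least 65.9-fold higher when the forebrain sum was set to 3 counts.

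In the opposite direction, Nr2e1, a nuclear receptor that maintains forebrain stem cells and was named after its values were seen, had 233 UMIs or 88.2 CPM in forebrain members and none in Hox members, at least 29.9-fold higher by the same floor of 3 counts. Id4, an inhibitor of proneural factors, was at 314 CPM in forebrain and 129 in Hox members, Sfrp1, a secreted Wnt inhibitor, at 146 against 50.2, and Gli3, a Hedgehog effector that patterns the dorsal forebrain, at 329 against 189. Sox1 was at 58.7 against 24.6 CPM and Sox3 at 53.7 against 24.6. Sox2 differed little, at 393 CPM in Hox and 324 in forebrain members (ratio of Hox to forebrain 1.21, 1.07 to 1.37). Adgrv1 was at 486 and 497 CPM (ratio 0.978, 0.880 to 1.09). The Hox members included 12 of the 20 members with Sox10, and Sox10 was at 68.9 CPM in Hox and 0.379 in forebrain members.

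Genes of the cell cycle were higher in members than in the other barcodes. The 16 S phase genes summed to 1835 CPM in members and 1009 in the others, and the 16 G2/M genes to 5627 against 2875 CPM, ratios of 1.82 and 1.96. None of these 32 genes was called at 4-fold. Top2a, the topoisomerase of dividing cells, was detected in 64.3% of members and 41.1% of the others, and after thinning to 2000 UMIs in 41.0% and 25.3%. Mki67, the proliferation antigen, was detected in 50.5% of members, with thinned shares of 21.4% and 14.3%. Rrm2, the ribonucleotide reductase subunit of S phase, was at 225 against 83.0 CPM. The spread among members was wide, with G2/M genes taking from 0 to 2.12% of a member's UMIs, a median of 0.300% and an upper quartile of 0.623%. A G2/M UMI was found in 90.0% of members after thinning (95% interval 86.2 to 93.1) and in 80.7% of the others. Free RNA held these genes at 2698 CPM, close to the other barcodes, so detection of a single UMI was not read as cycling. Forebrain members had more S phase RNA than Hox members, 2067 against 1275 CPM, and G2/M genes were at 6628 against 5404. In the 57 Hox members without Sox10, S phase genes were at 1192 and G2/M genes at 6345 CPM, near the forebrain level for G2/M only. The 12 Hox members with Sox10 had 1538 and 2447 CPM.

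The Notch pathway is the target of the floxed allele in the study and the regulator of Hes5, so its genes were read in the group by role. Among receptors, Notch1 was at 124 CPM in members (95% interval 114 to 134), 34.4 in the others, 41.5 in barcodes with at least 2 Cdh5 UMIs and 19.5 in free RNA, a ratio of members to others of 3.59 (3.29 to 3.92). It gave 0 to 12 UMIs per member, with a UMI in 64.3% of members and 18.1% of the others, or 19.8% and 5.91% after thinning. The comparison barcodes pooled controls with iSuRe groups, in whose ECs the study reported loss of Notch1 mRNA. Cell type and deletion therefore cannot be told apart in these Notch1 values. Notch3 was at 40.9 against 13.7 CPM and Notch2 at 62.8 against 55.9, whose ratio of 1.12 had an interval of 0.999 to 1.26. Notch4, a receptor of ECs, was at 6.70 against 10.9 CPM.

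Among ligands, Dll1, the main ligand of neural progenitors, was at 26.6 against 10.9 CPM, a ratio of 2.43 that became 5.31 against barcodes without Cdh5, and Dll3, which is found in differentiating progenitors, at 15.7 against 4.41. Dll4 and Jag2 were lower in members, with 5 UMIs each, or 1.05 CPM, against 14.0 CPM for Dll4 and 16.0 for Jag2 in the others. Jag1 was at 13.4 against 26.0 CPM and the non-canonical ligand Dlk1 at 107 against 295. Rbpj, the DNA-binding effector, was at 133 against 102 CPM (ratio 1.31), and Lfng, which modifies the receptors, at 20.9 against 10.6. Among targets other than Hes5, Nrarp was at 56.8 against 23.8 CPM (ratio 2.38, 2.10 to 2.70), Hes1 at 175 against 119 (ratio 1.47, 1.37 to 1.58) and Hey1 at 36.0 against 14.9. Hey2 and Heyl were at 10.9 and 10.7 CPM against 2.48 and 2.41. Of the 4 receptors, 6 ligands and 10 modifiers, 0 were called at 4-fold in either direction, and of the 9 Hes, Hey and Id genes with enough UMIs Id4 alone was called, higher in members.

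**Figure D4:**
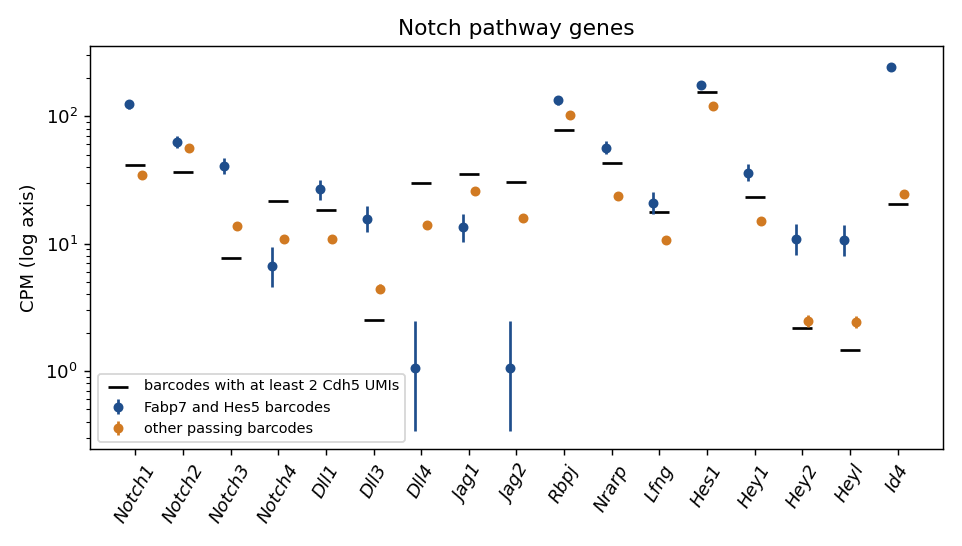
Notch receptors, ligands, modifiers and targets in CPM (log axis) in the Fabp7 and Hes5 barcodes and the other passing barcodes, with exact 95% Poisson intervals, and in barcodes with at least 2 Cdh5 UMIs (bars). Notch1, Notch3, Dll1, Dll3 and Id4 are higher in the Fabp7 and Hes5 barcodes, and Dll4, Jag2 and Notch4 are lower.

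Of the sequences introduced with the transgenes, the reporter and the recombinase were rare in members. WPRE, the element carried at the end of the reporter transcript, was at 42.5 CPM (95% interval 36.9 to 48.8) against 203 in the others, 361 in barcodes with at least 2 Cdh5 UMIs and 160.4 in free RNA. Tomato was at 4.40 CPM (21 UMIs over 311 barcodes), against 38.3 and 30.3 in free RNA, and Cre at 0.628 CPM (3 UMIs) against 11.0. ERT2, the ligand-binding part of the inducible recombinase, had 8 UMIs. WPRE and Tomato were therefore below their level in free RNA. FlpE was at 93.4 CPM against 49.1 in the others and 23.8 in free RNA (ratio to the others 1.90, 1.73 to 2.09), with a UMI in 109 members. It was not particular to them, with 86.7 CPM in the Stmn2 barcodes, 86.4 in 1325 barcodes with Col1a2 and Col3a1, fibroblast collagens, and 20.4 in barcodes with at least 2 Cdh5 UMIs. The Sv40-pA sequence was at 61.0 against 88.1 CPM.

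The study's conditions could be read in only a part of the group, because most members had no clear hashtag. HTODemux, which calls a hashtag positive above the background of its counts, gave 72 singlets (23.2%, 95% interval 18.6 to 28.2), 25 doublets and 214 negatives among the 311 members, against 34.2% singlets, 18.7% doublets and 47.1% negatives in the 13988 other barcodes with more than 4 hashtag UMIs. Members had a median of 33 UMIs over the 6 hashtags and the others 47. The hashtag of iSuRe-Cre liver was the highest in 305 of the 311 members and in 90.3% of the other barcodes, with a median of 22 UMIs in members, whereas the medians of the other 5 hashtags were 1 or 2. Calling a singlet wherever the highest hashtag was at least 3 times the next gave 89.4% in place of 23.2%, nearly always with that hashtag, so this rule could not be used to place members in groups.

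Of the 72 singlets, 31 were called control heart, 9 control liver, 4 iSuRe-Cre heart, 8 iSuRe-Cre liver, 6 iSuRe-HadCre heart and 14 iSuRe-HadCre liver. As a share of all singlets of the same group this was 2.61% of 1189 in control heart (95% interval 1.78 to 3.68), 1.85% of 487 in control liver (0.848 to 3.48), 0.637% of 628 in iSuRe-Cre heart (0.174 to 1.62) and 0.655% of 1222 in iSuRe-Cre liver (0.283 to 1.29). In iSuRe-HadCre heart it was 0.832% of 721 (0.306 to 1.80) and in iSuRe-HadCre liver 2.29% of 612 (1.26 to 3.81). Calls of all 6 hashtags were found among members. The labels name no neural tissue, and as the calls were few and weak, they do not place the members in an organ. The calls had low counts, with a median of 5 UMIs of their own hashtag in the control heart members, 5 in control liver, 6 in iSuRe-HadCre liver and 94.5 in iSuRe-Cre liver. Each group was 1 sample and its sort could set its share, so condition and sample cannot be told apart and the shares were not compared between conditions.

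**Figure D5:**
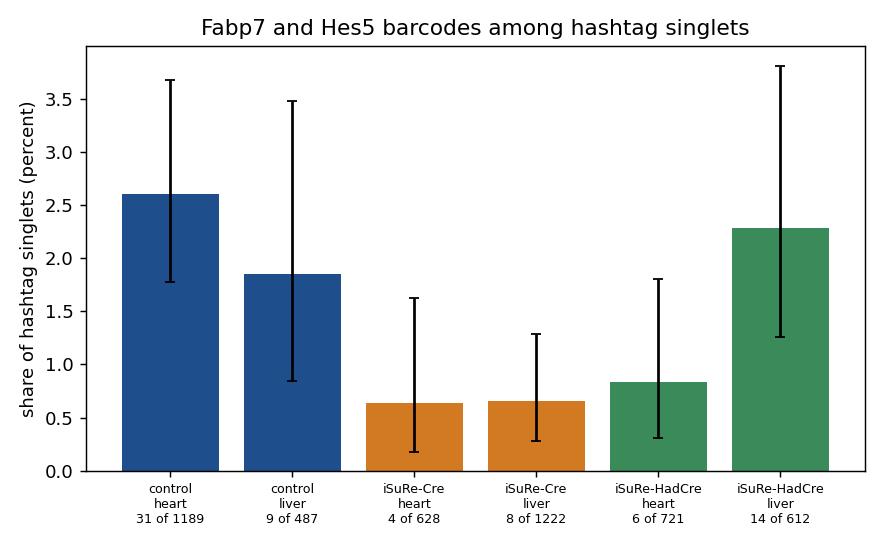
Fabp7 and Hes5 barcodes as a percent of all HTODemux singlets of each group, with exact 95% binomial intervals and the counts under each bar. The shares run from 0.637% in iSuRe-Cre heart to 2.61% in control heart, and the intervals cover counting of barcodes in 1 sample a group, not the spread between samples.

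Fabp7 and Hes5 were required of every member, so only genes outside the rule are given by hashtag. The CNS progenitor list lay between 1639.6 CPM in control liver and 2463 CPM in iSuRe-HadCre liver, with 2218 in the 214 negatives. Sox2, in sum, lay between 248 and 349 CPM in the 6 groups. Forebrain members were found in all 6 groups, 19 of them in control heart and 5 in iSuRe-HadCre liver, and so were Hox members, with 9 and 5. The negatives held 105 forebrain and 41 Hox members.

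Notch1 was read by group as the gene that the study set out to delete in ECs. It was at 137 CPM in members of control heart (74 UMIs, 95% interval 107 to 172) and 112 in control liver (10 UMIs). In iSuRe-HadCre liver it was at 164 CPM (40 UMIs, 117 to 223) and in iSuRe-HadCre heart at 57.8 (7 UMIs, 23.2 to 119). The iSuRe-Cre groups had 8 UMIs in liver and 2 in heart. These intervals cover counting error only, and with 1 sample a group and as few as 2 UMIs, Notch1 was not compared between conditions. WPRE was at 29.6 CPM in members of control heart (16 UMIs, 95% interval 16.9 to 48.0) and 59.5 in iSuRe-Cre heart (3 UMIs, 12.3 to 174). It was at 65.5 CPM in iSuRe-HadCre liver (16 UMIs, 37.4 to 106) and 101 in control liver (9 UMIs, 46.2 to 192). In members of iSuRe-Cre liver it was at 111 CPM (7 UMIs, 44.7 to 229). With counts this low, the groups were not ranked. WPRE had no UMI in the 6 members of iSuRe-HadCre heart, where 3 counts would be 24.8 CPM and the 95% interval reached 30.4.

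Genes that varied with Fabp7 from member to member were sought among the 7214 genes detected in at least 20% of the 311. As a description over barcodes of 1 library, the highest rank correlations with the Fabp7 share of UMIs were those of Cspg5 (0.52), a neural proteoglycan, Ptn (0.47), a growth factor of radial glia, Gpm6b (0.45), a neural membrane protein, Vim (0.45), the intermediate filament vimentin, and Qk (0.43), a glial RNA-binding protein. Among the lowest were those of Lhx2 (-0.40), Ptma (-0.37), Neurog2 (-0.31) and Nme1 (-0.30). The Fabp7 share had a rank correlation of 0.02 with depth. For Hes5 the highest were Id1 (0.25), Ckb (0.24), Id3 (0.22), Tmsb4x (0.20) and Fam181a (0.20), and its share had a rank correlation of -0.21 with depth. Hes5 and Fabp7 were correlated at 0.16. The values for Hes5, with a median of 3 UMIs per member, were weak and are not read as a pattern.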

How the data were processed

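The deposited file holds unique UMI counts per gene and barcode, which per the labels and the study's methods the authors made with Cell Ranger 7.1.0 on GRCm38 (mm10) with Ensembl 98 genes and added transgene sequences. It was not filtered for cells, and replicates were pooled in 1 library of 2755147 barcodes, of which 24161 had more than 2000 UMIs. Deposited counts of 6 antibody hashtags marked the groups, and 7 further features with no group were not used. The members and the gene lists were chosen with earlier results of these data known.

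Counts were summed over members and over the other passing barcodes and divided by their summed UMIs (CPM). Members had 4773559 UMIs in all and the others 137541145, which sets the width of the exact 95% intervals, and UMIs are counted as independent molecules. No test was made, as each group was 1 sample. A gene was called by size at 4-fold with 10 CPM added, among genes with at least 200 UMIs. Thinning to 2000 UMIs used the exact mean over all draws, and no passing barcode was too shallow for it. Hashtags were called with HTODemux (Seurat 5.3.0, R 4.3.3, quantile 0.99) on barcodes with more than 4 hashtag UMIs, and the 25 members called doublets were kept. No expression-based doublet caller was run. Genes were named by rule: the 15 highest and 10 lowest by log2 difference, all genes of the lists, and the 5 most and least correlated with Fabp7 and with Hes5 among genes in at least 20% of members. Some genes that the rule names are not reported here. Scripts used Python 3.11.15, numpy 2.4.6, scipy 1.17.1 and pandas 2.3.3 and were tested on simulated data. Promoters came from RefSeq (GRCm38.p6) and gene positions from GENCODE M21 on GRCm38.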

Additional observations from a re-analysis of the deposited data

Results flagged for a closer look

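The matrix also holds 60 features named as barcodes, which the comparisons above do not use and whose purpose the sources used here did not give. They summed to 460 CPM in members (2197 UMIs, 95% interval 441 to 480), against 257 CPM in the other passing barcodes, 258 in free RNA and 132 in barcodes with at least 2 Cdh5 UMIs. The ratio of members to the others was 1.79 (1.71 to 1.87). This stands out as a signal outside the main measurement that is above the floor of 3 counts, or 0.628 CPM, in a matrix with no control for these features, and its level in free RNA was not far from that in the other barcodes.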

How the results depend on the processing

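Over 13 settings planned at the outset, 63 values were recomputed, of which 42 stayed within their limits, 20 moved and 1 turned in direction. Over 5 settings added after seeing the data, 20 values gave 11, 7 and 2. With 1 CPM added in place of 10, 210 genes were higher and 1039 lower. Against barcodes without Cdh5, 87 genes were lower, and the list ratios were 5.42 for CNS progenitors, 1.34 for crest glia, 0.960 for neurons, which turned below 1, 0.414 for endothelial and 5.35 for forebrain genes, with 4.17 for Notch1, 5.31 for Dll1 and 1.91 for Hes1. With means of the barcodes' own CPM, they were 5.58, 1.64, 1.38, 0.133 and 6.42, with 1.31 for Hes1 and, as an added setting, 2.59 for Fabp7 in Hox over forebrain members. Without the members that had Sox10, an added setting, the ratios were 6.06 for CNS progenitors, 0.523 for crest glia, which turned below 1 and was 0.779 with Sox10 barcodes left out of both sides and Sox10 out of the list, 8.23 for forebrain genes and 2.80 for Fabp7 by region. Among members with at least 5000 UMIs, also added, they were 6.06 for CNS progenitors and 0.0455 for endothelial genes. With an added limit of 5 UMIs for the regional lists, 6 members had both. WPRE was at 33.4 CPM in members with at least 2 Hes5 UMIs. A G2/M UMI was found in 95.1% of members thinned to 4000 UMIs, without the shallower ones. Singlet calls rose from 23.2% to 34.4% at a quantile of 0.95 and 89.4% by a 3-fold rule. The cause of these shifts was not tested. The number of members and the counts of the crest glia comparison stayed within 1.5 times of their values in every setting tried. Depth limits the smallest hashtag groups, with 4 members in iSuRe-Cre heart. No paired analysis was possible because each group was 1 sample of a pooled library and no result came from a test.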

Other observations

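Lists for patterning and signalling gave further values. The 16 genes of the dorsal and ventral domains of the neural tube summed to 286 CPM in members and 82.8 in the other barcodes, with 1 of the 9 that had enough UMIs called higher at 4-fold, and gave 0 to 38 UMIs per member with a median of 1. The 15 genes of Hedgehog, FGF, Wnt and retinoid signalling were at 1279 against 766 CPM, with 1 called higher and 0 lower. The retinal progenitor list was at 307 against 39.2 CPM, and 3 of its 7 genes, Lhx2, Otx2 and Six3, are also in the forebrain list.

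The 11 other fatty acid binding proteins were at 1240.2 CPM in members and 4975 in the others, with 2 of the 8 with enough UMIs called lower. Fabp4, a fatty acid carrier of capillary ECs, was at 162 against 3230.0 CPM, and Fabp5, which neural progenitors also make, at 719 against 1184. The list of fetal growth and RNA binding genes was at 834 against 907 CPM (ratio 0.920, 0.891 to 0.949), with 0 of the 8 with enough UMIs called in either direction.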
